A study of Mus musculus with 12 samples.

Results

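DNA methylation at CpG sites is written, copied, oxidised and read by a small set of proteins, and 9 of their genes were followed here through the first postnatal month of the mouse cerebellum. The set was fixed by name, as the rows of the deposited table with the symbols Dnmt1, Uhrf1, Dnmt3a, Dnmt3b, Tet1, Tet2, Tet3, Mbd1 and Mbd2, and all 9 of them were found among 24421 entries. RNA had been sequenced from GFP-positive cells sorted by fluorescence from the cerebellum of Aldh1l1-GFP mice, on the C57/BL6J background given in the study's methods and with animals of either sex, at postnatal day 1 (P1), P7, P14 and P28, in 3 libraries per time point. All 12 libraries carried the same reporter genotype and no treatment, and age is the variable that the labels give between the groups. The sex of each library, the day of sorting and the sequencing batch are not given in the sources used here. GFP is driven by the promoter of Aldh1l1, an astrocyte gene of folate metabolism, so the sort took whatever cells had that promoter active at each age. The labels do not say whether the libraries of a time point came from separate animals, and p-values therefore measure the spread between these libraries, which may be technical.

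Methylated cytosine is copied onto the new DNA strand after replication by Dnmt1, which Uhrf1 brings to hemimethylated CpG sites, while Dnmt3a and Dnmt3b place methyl groups on sites that had none. The Tet enzymes oxidise methylcytosine, which leads either to its loss through later replication or to its excision by base excision repair. Methylated CpG sites are bound by proteins with a methyl-CpG binding domain such as Mbd1 and Mbd2, which recruit histone deacetylases and histone methyltransferases. Maintenance is needed whenever DNA replicates, and Dnmt1, Dnmt3a and the Tet enzymes are also known to act in postmitotic neurons.

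Of the 9 genes, Uhrf1 had the widest change below, so the sequences before its starts are shown. The one before a start of Dnmt1, the enzyme it works with, is shown too. RefSeq promoter windows (GRCm38.p6, 250 bases before a transcript start) were held for 7 of the 9 genes, in 12 windows. Capitals mark matches, on either strand, to TTTNNCGC, a loose form of the site bound by the E2F factors of the cell cycle, and to CCAAT, and in the sequences shown no match overlaps another.
Uhrf1, chr17:56303087-56303336, plus strand: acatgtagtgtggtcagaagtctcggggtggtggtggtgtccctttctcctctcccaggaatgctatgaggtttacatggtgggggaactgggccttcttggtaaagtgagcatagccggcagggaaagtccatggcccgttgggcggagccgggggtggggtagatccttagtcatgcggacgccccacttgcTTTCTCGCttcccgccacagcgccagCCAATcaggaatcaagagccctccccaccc
Uhrf1, chr17:56304063-56304312, plus strand: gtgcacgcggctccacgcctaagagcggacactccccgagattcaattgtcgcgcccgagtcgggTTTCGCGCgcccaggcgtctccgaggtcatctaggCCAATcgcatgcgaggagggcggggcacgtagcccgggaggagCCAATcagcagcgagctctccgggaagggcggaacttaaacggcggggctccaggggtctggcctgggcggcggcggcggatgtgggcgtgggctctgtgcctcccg
Dnmt1, chr9:20952980-20953229, minus strand, 5′ to 3′ on that strand: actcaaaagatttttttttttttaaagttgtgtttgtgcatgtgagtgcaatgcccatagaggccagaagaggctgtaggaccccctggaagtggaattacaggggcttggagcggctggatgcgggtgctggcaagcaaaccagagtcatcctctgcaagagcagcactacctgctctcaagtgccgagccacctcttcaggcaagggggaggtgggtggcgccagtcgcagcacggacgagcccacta
Each Uhrf1 window held 1 match to TTTNNCGC, a motif found in 4.28% of the 32851 promoter windows of the same length. The first also held 1 CCAAT and the second 2, against 33.85% of all windows with at least 1. The Dnmt1 window shown held no match to either motif, while the outermost Dnmt1 window held 4 CCAAT. A further Dnmt1 window, at chr9:20952624-20952873, held 3 CCAAT and 2 matches to TTTNNCGC that share bases, but it lies largely in the first exon of a longer annotated transcript and is not printed. In all, 3 of the 12 windows, from 2 of the 7 genes, held TTTNNCGC, 0 held the NRF1 motif (0.782% of all windows), and the windows of Dnmt3a, Dnmt3b and the Tet genes held no match to it. CCAAT was in 5 of the 12 windows, from 3 genes. GGGCGG, the GC box, was in 10 of the 12 windows against 32.74% of all windows. The CpG count ranged from 2 in the outermost Dnmt1 window to 51 in that of Tet2, against a median of 6 over all windows. A match is a description of letters and not of binding, which was not measured.

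By the annotation of the same build (GENCODE M21 on GRCm38, the build called mm10 in the labels), Dnmt1 lies on chromosome 9 (20907209 to 20959888, minus strand), Uhrf1 on chromosome 17 (56303321 to 56323486, plus) and Dnmt3a on chromosome 12 (3806007 to 3914443, plus). Dnmt3b is on chromosome 2 (153649450 to 153687730, plus), Tet1 on chromosome 10 (62804570 to 62908996, minus), Tet2 on chromosome 3 (133463679 to 133545139, minus) and Tet3 on chromosome 6 (83362373 to 83459084, minus). Mbd1 and Mbd2 both lie on chromosome 18. Exons of Dnmt3a overlap those of the antisense gene Dnmt3aos, and the counting is not stated to use strand, so reads in the shared bases cannot be told apart. Dnmt3aos itself held 0 to 19.0 normalized counts, against 1779.5 or more for Dnmt3a. The same limit holds for Tet2, whose exons overlap those of the antisense gene Gm42567, for which no value was analysed here.

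Between 6399499 and 14733985 reads were counted on genes per library. The reporter's own gene Aldh1l1 was detected in every library, at normalized counts between 3841 and 6441 at P1, 936 and 1985 at P7, 1824 and 1978 at P14, and 2451 and 3338 at P28, and 10 astrocyte markers summed to between 49618 and 63205 at P1, 27111 and 50058 at P7, 133278 and 173474 at P14, and 303954 and 344208 at P28. Markers of other cells were present too. Those of the oligodendrocyte lineage (10 genes) summed to 7315 to 11417, 21863 to 33131, 295601 to 357207 and 93436 to 132608 in order of age. The sum of 6 pan-neuronal markers was 1906 to 4997, 6796 to 8309, 21648 to 39525 and 13107 to 17654 in the same order. Markers of GABAergic interneurons and Purkinje cells (8 genes) gave 832 to 2258, 2991 to 6001, 781 to 1104 and 508 to 926. Those of granule neurons (7) gave 287 to 517, 3419 to 7278, 13434 to 24318 and 8901 to 9996. Those of microglia and macrophages (8) gave 955 to 1767, 1476 to 2132, 2589 to 3855 and 1853 to 2306. Those of endothelial cells and pericytes (8) gave 1354 to 3938, 2317 to 10295, 6181 to 6893 and 3456 to 5239. Markers of the choroid plexus and ependyma (6 genes, mostly Ttr) summed to between 836 and 1836 at P1, 47996 and 127391 at P7, 1034 (replicate 3) and 109167 (replicate 1) at P14, and 17898 and 182629 at P28. The 8 markers of granule neuron precursors, of which Zic1 and Gli2 were the most abundant, summed to between 3402 and 6068 at P1, 9155 and 10693 at P7, 5854 and 7437 at P14, and 7032 and 7994 at P28. One of the 8, Atoh1, had 0 to 58 reads at P1 and P7 and 0 reads in all 6 libraries of P14 and P28. Of the 16 genes of S phase and mitosis used as a measure of dividing cells, the summed level ran from 11464 to 19185 at P1, from 24335 to 30569 at P7, from 1375 to 2228 at P14 and from 671 to 945 at P28. The part of these cell populations in the results below was not tested, and in RNA from sorted pools fewer cells of a type and less RNA per cell cannot be told apart.

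Values are normalized counts, that is, reads divided by a size factor per library. Changes are log2 fold changes of the value plus 1, with their standard error (SE), from 1 limma fit over all 12 libraries and 15464 genes, and a gene was called at a Benjamini-Hochberg adjusted p under 0.05 over all of those genes. In this fit the 4 time points share 1 estimate of the spread per gene. Libraries of P28 were less alike (log2 r from 0.849 to 0.862) than those of P7 (0.950 to 0.965). All 9 genes passed the filter on low values. Over the 4 time points, 8 of the 9 genes changed (F test), all except Tet2 (limma adjusted p = 0.0754), against 43.8% of all genes tested.

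From P1 to P7, 0 of the 9 genes were called by limma, against 7.70% of all genes, with 3 at an unadjusted p under 0.05, 0 called by edgeR and 2 by DESeq2. With only P1 and P7 fitted, limma called 3 of the 9, beside 2810 of 14787 genes. From P7 to P14, 4 fell (Dnmt1, Uhrf1, Dnmt3b and Tet1) and 1 rose (Dnmt3a), against 20.9% of all genes called in either direction, 10.0% lower and 10.8% higher. From P14 to P28 only Mbd1 was called, falling, against 14.4% of all genes, with 8.76% lower. With only P14 and P28 fitted, 0 of the 9 were called, beside 863 of 13870 genes. Over the whole span from P1 to P28, 5 fell (Dnmt1, Uhrf1, Tet2, Tet3 and Mbd1) and Mbd2 rose, against 34.6% of all genes, with 20.0% lower and 14.6% higher. At an unadjusted p under 0.05 with a log2 fold change over 0.75, as the study's threshold was read, 1, 3, 2 and 4 of the 9 passed in these comparisons, against 14.2%, 26.2%, 24.1% and 39.3% of all genes. The median log2 fold change of the 9 from P1 to P28 was -0.74, beside -0.24 over all genes tested. Libraries of the 2 time points did not overlap for 8 of the 9 genes between P7 and P14 and for 7 between P1 and P28, against 46.1% and 41.9% of all genes. Scaling by library totals instead of size factors moved the median of all genes from -0.24 to -0.67 between P1 and P28 and from -0.09 to -0.35 between P7 and P14, and changes in the text are on the size factor scale.

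**Figure D1:**
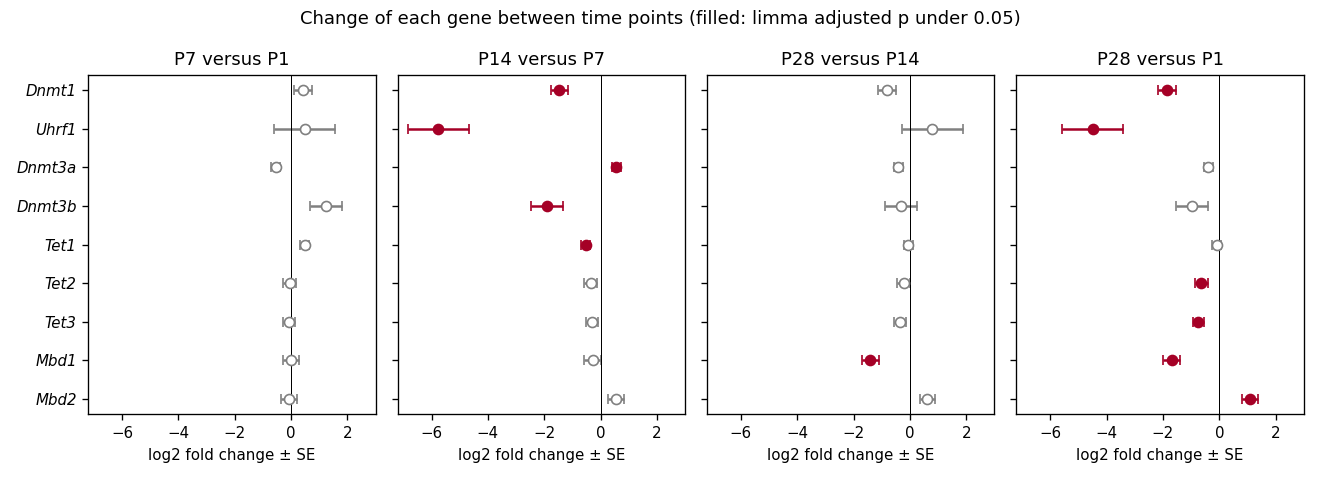
Log2 fold change (x axis) of the 9 genes (y axis) in 4 comparisons of time points, with bars for the SE and filled points for a limma adjusted p under 0.05. The filled points lie mostly to the left, with Uhrf1 farthest at -5.76 from P7 to P14, and Dnmt3a (0.56, P7 to P14) and Mbd2 (1.09, P1 to P28) to the right.

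The maintenance pair, Dnmt1 and Uhrf1, was high in the first week and low from P14 on. Dnmt1, the enzyme that copies methylation, had 1501, 774 and 1419 normalized counts at P1, 1599, 1579.7 and 1563 at P7, 528, 613 and 584 at P14, and 554, 264 and 235 at P28. The libraries of P1 and P7 all lay above those of P14 and P28, and replicate 1 of P28 lay within the P14 range. Dnmt1 fell by 1.46 ± 0.31 (SE) on the log2 scale from P7 to P14 (limma adjusted p = 0.00341), a mean 2.75-fold lower, and by 1.86 ± 0.31 from P1 to P28 (adjusted p = 0.000352). The further difference of -0.82 ± 0.31 from P14 to P28 was not called (adjusted p = 0.0892), but was without replicate 1 of P28 (-1.20, adjusted p = 0.00816). Among the P1 libraries, replicate 2 was lowest in Dnmt1, and it was also the lowest of the 3 in the summed S phase and mitosis genes (11464, against 19164 and 19185). The later ages did not share this order. Replicate 1 of P7 was highest in Dnmt1 and lowest in that sum. Replicate 1 of P14 and replicate 3 of P28 were lowest in Dnmt1 and highest in the sum. The Dnmt1 values at P7 lay close together (SD 17.7), so their order carries little. At P28 the largest members of the sum were Mcm4 and Mcm3 (means of 400 and 137), beside 19.7 for Mki67. A link between Dnmt1 and the sum among libraries of 1 age was not tested.

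Uhrf1, which recruits Dnmt1 to newly replicated DNA, showed the steepest course of the set. It had 376, 116 and 306 normalized counts at P1 and 342, 315 and 333 at P7, but 3.18, 7.41 and 5.43 at P14, which are 3, 7 and 5 reads. At P28 it had 40.9, 0 and 27.0, or 28, 0 and 20 reads, where the 0 of replicate 2 allows up to 3.54 normalized counts. Every library of P1 and P7 was above every library of P14 and P28, and the P14 values lay within the wide range of P28. Uhrf1 fell by 5.76 ± 1.08 (SE) on the log2 scale from P7 to P14 (limma adjusted p = 0.00155) and by 4.50 ± 1.08 from P1 to P28 (adjusted p = 0.00528). The size of these falls depended on the pseudocount and on the library at 0: from P7 to P14 it was -4.48 with a pseudocount of 10, and from P1 to P28 it was -2.80 without replicate 2 of P28 (adjusted p = 0.00272). The difference from P14 to P28 was 0.79 ± 1.08 (adjusted p = 0.665), and 2.49 without that library (adjusted p = 0.0136).

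The ratio of the pair shifted as well. Per kilobase of exon, Dnmt1 was 2.31 to 3.86 times Uhrf1 at P1 and 2.70 to 2.89 times at P7, but 47.8 to 96.0 times at P14. At P28 it was 7.81 and 5.02 times in the libraries with Uhrf1 reads. These ratios are given as values and were not tested.

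**Figure D2:**
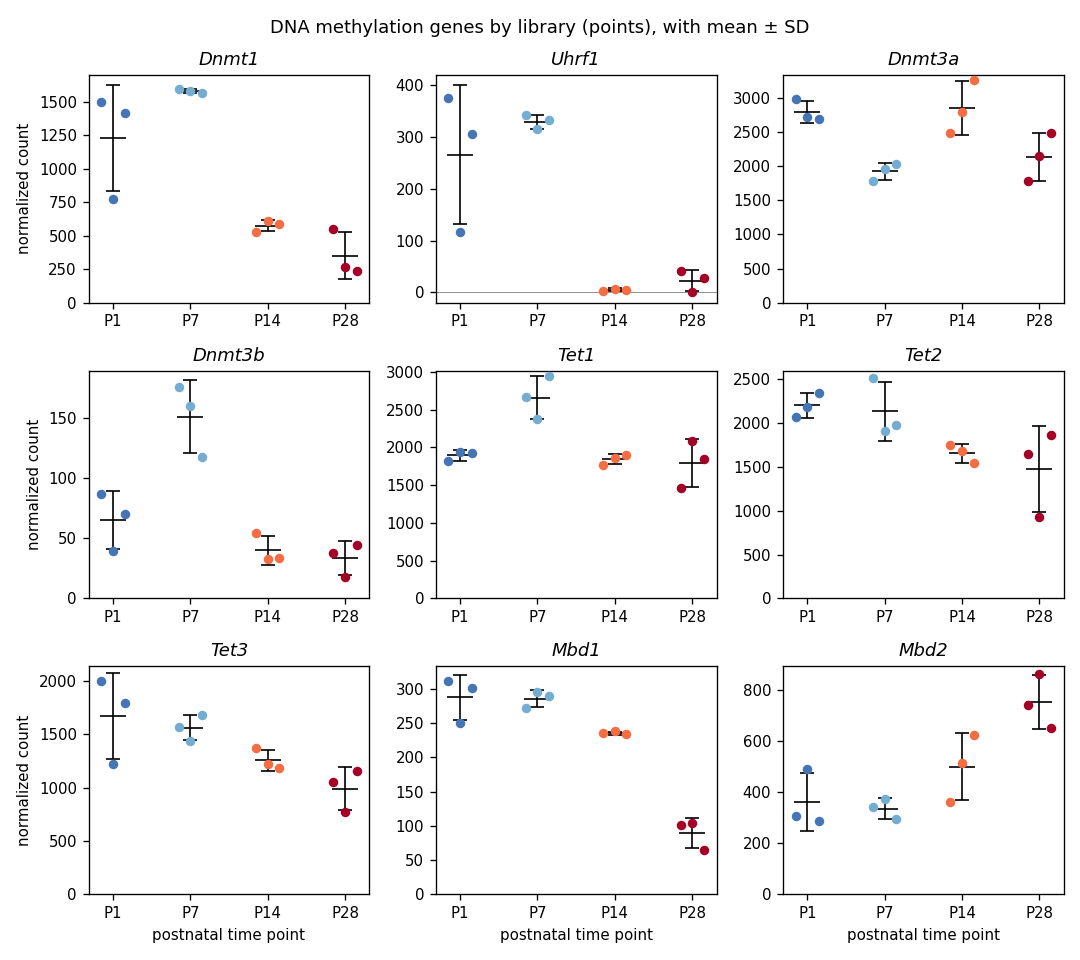
Normalized counts (y axis, from 0) of each gene by postnatal time point (x axis), with 1 point per library, a bar for the mean and whiskers for the SD over 3 libraries. Dnmt1, Uhrf1 and Dnmt3b drop between P7 and P14, Mbd1 is near 235 in all 3 P14 libraries and at or below 104 at P28, and Mbd2 is 652 or higher at P28.

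Most of the listed partners of the methylation writers were called lower as well. Of 9 partners, 7 could be tested, and from P7 to P14 5 of them fell, against 10.0% of all genes, with a median log2 fold change of -1.32 beside -0.09 over all genes. From P1 to P28 6 of the 7 fell, against 20.0% of all genes, with a median of -1.14 beside -0.24. Hells, the chromatin remodeller needed for methylation of heterochromatin, had a mean of 168 normalized counts at P1 and 384 at P7, and then 33.7 at P14 and 7.75 at P28. It fell by 3.72 ± 0.69 (SE) from P7 to P14 (limma adjusted p = 0.00144). Its partner Cdca7 had means of 96.3 at P1 and 199 at P7 and was at 0 in 2 of the 3 libraries of P28, and it fell by 5.21 ± 1.05 from P7 to P14 (adjusted p = 0.00249). Lig1, the replicative DNA ligase to which Uhrf1 binds, fell by 3.05 ± 0.42 (adjusted p = 0.000135), from a mean of 869 to 117. Pcna, the replication clamp that holds Dnmt1 at the fork, fell less, by 1.32 ± 0.22 (adjusted p = 0.000598), from 1927 to 783. Usp7, a deubiquitinase that stabilises Dnmt1 and Uhrf1, fell by 1.05 ± 0.21 (adjusted p = 0.0028), and Uhrf2, the relative of Uhrf1, was not called from P7 to P14 (adjusted p = 0.295) but was lower at P28 than at P1 by 0.84 ± 0.30 (adjusted p = 0.0401). Zbtb24, the remaining partner tested, was called in neither comparison, with means of 150 at P1 and 185 at P28. Dnmt3l, a cofactor of the de novo enzymes, and Dppa3, which binds Uhrf1 and hinders maintenance, did not pass the filter.

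The S phase and mitosis genes fell at the same step. From P7 to P14, 15 of 16 were called lower, against 10.0% of all genes. Their median log2 fold change was -3.62, beside -0.09 over all genes. From P1 to P28 all 16 were called lower, against 20.0% of all genes, with a median of -5.79 beside -0.24. Mki67, a marker of cycling cells, had a mean of 11544 normalized counts at P7, 394 at P14 and 19.7 at P28, and Top2a, the mitotic topoisomerase, 7078, 317 and 5.27. Over the whole list, means at P28 ran from 0 for Cdk1 to 400 for Mcm4, which had 856 at P1. Dnmt1 kept 235 to 554 normalized counts at P28. Whether the fall of Dnmt1 and Uhrf1 in the sorted cells goes beyond that of the cycling cells was not tested.

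**Figure D3:**
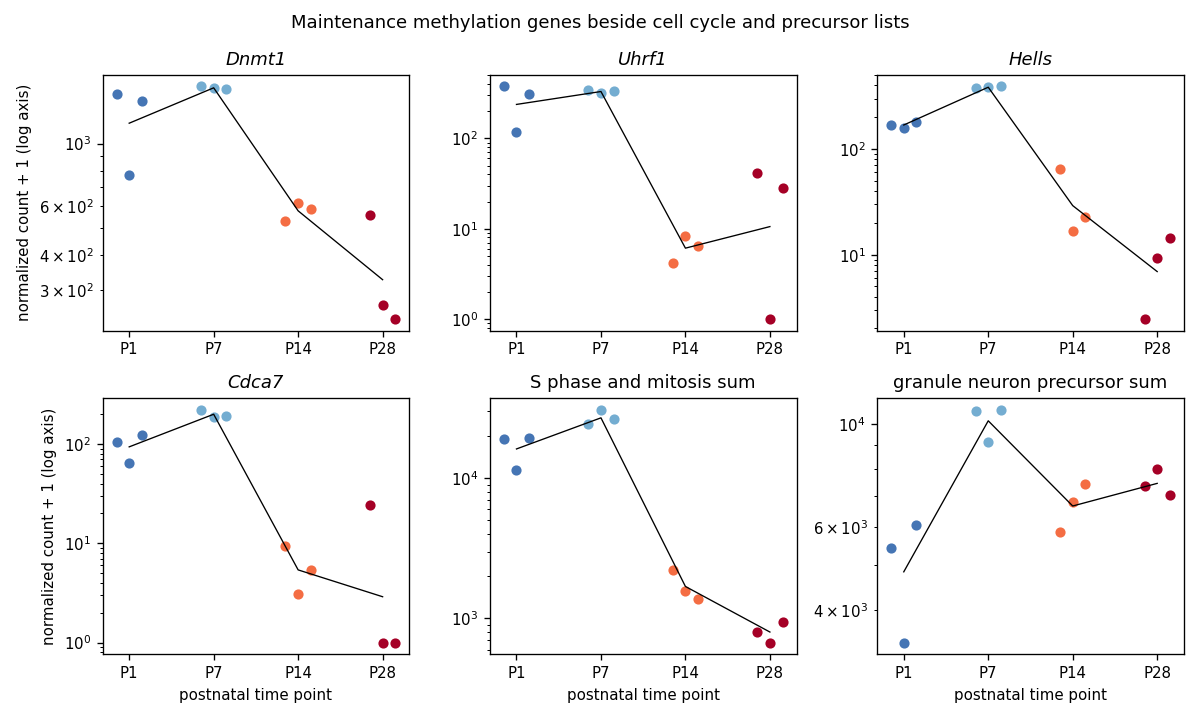
Normalized counts plus 1 on a log axis by time point for Dnmt1, Uhrf1, Hells, Cdca7, the summed S phase and mitosis genes and the summed granule neuron precursor markers, with 1 point per library and a line through the means of the log values. The first 5 panels step down between P7 and P14. The precursor sum is 9155 to 10693 at P7, above the libraries of the other ages (3402 to 7994). It is mostly Zic1, with means of 6798 at P7 and 4911 at P14. Of its 8 markers, 2 were called lower and 0 higher at P14 than at P7, against 10.0% and 10.8% of all genes. At P28 against P7, 5 were called lower and 0 higher, against 23.0% and 16.2% of all genes.

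The de novo enzymes followed 2 different courses. Dnmt3a, the main de novo methyltransferase of the postnatal brain, had 2980, 2711 and 2691 normalized counts at P1, 1780, 1955 and 2026 at P7, 2479, 2795 and 3261 at P14, and 1786, 2141 and 2490 at P28. The P7 libraries all lay below those of P1 and P14, and P28 overlapped P7 and P14 and lay below P1. Dnmt3a rose by 0.56 ± 0.16 (SE) on the log2 scale from P7 to P14 (limma adjusted p = 0.0222). The dip from P1 to P7, of -0.54 ± 0.16, missed the threshold (adjusted p = 0.0542). It was called by DESeq2 (adjusted p = 0.0246), with only P1 and P7 fitted (0.0198) and with a minimum of 10 reads in all libraries (0.0412). It was also called without replicate 1 or 3 of P28 (0.0364 and 0.0335). The rise was lost on leaving out any of the 3 P7 libraries or replicates 2 or 3 of P14 (adjusted p from 0.0505 to 0.0947) and under scaling by library totals (0.30, adjusted p = 0.172). P28 differed from P1 by -0.40 ± 0.16 (adjusted p = 0.0682) and from P14 by -0.42 ± 0.16 (adjusted p = 0.0974), neither called. Both were called under library totals, at -0.83 (adjusted p = 0.000665) and -0.65 (0.0111), and without replicate 3 of P28 (0.0278 and 0.0453).

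Dnmt3b, the de novo enzyme of early embryos and repeats, was far lower. It had 86.7, 39.3 and 70.4 normalized counts at P1, 176, 159.7 and 118 at P7, 54.0, 32.8 and 33.7 at P14, and 38.0, 17.7 and 44.6 at P28. The 3 P7 libraries lay above all others, and the other time points overlapped each other. Dnmt3b fell by 1.90 ± 0.56 (SE) on the log2 scale from P7 to P14 (limma adjusted p = 0.0257), while the higher level at P7 than at P1, 1.25 ± 0.56, was not called (adjusted p = 0.234). With only P1 and P7 fitted, that difference from P1 was called (adjusted p = 0.0342). With 15 to 221 reads per library the counting error was large, and the fall was lost on leaving out any P7 library or replicates 2 or 3 of P14 (adjusted p from 0.0607 to 0.111).

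The ratios between the methyltransferases are given as values and were not tested. Per kilobase, Dnmt3a was 10.5 to 21.2 times Dnmt3b at P1, 3.10 to 5.28 times at P7, 14.1 to 29.7 times at P14 and 14.4 to 37.1 times at P28. These ratios overlapped between P1, P14 and P28 and were lower in all 3 P7 libraries. Dnmt1 was 0.644 to 1.19 times Dnmt3a at P1, 1.74 to 2.03 times at P7, 0.404 to 0.494 times at P14 and 0.213 to 0.700 times at P28. Dnmt1 made up 38.1% to 52.3% of the summed per-kilobase level of the 3 enzymes at P1 and 59.0% to 60.5% at P7, and Dnmt3a 64.4% to 69.6% at P14 and 56.5% to 78.6% at P28. That sum itself ran from 275 to 399.5 at P1, from 357 to 363 at P7, from 231 to 282 at P14 and from 168 to 190.2 at P28.

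**Figure D4:**
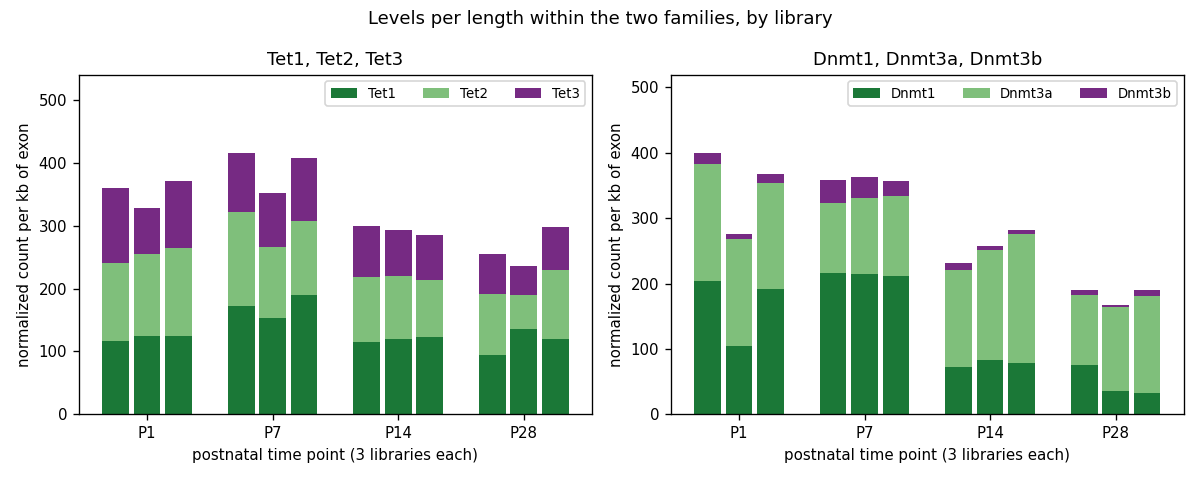
Normalized counts per kilobase of exon (y axis) in each of the 12 libraries, grouped by time point (x axis), stacked for Tet1, Tet2 and Tet3 and for Dnmt1, Dnmt3a and Dnmt3b. Dnmt1 is the largest part of the methyltransferase bars at P7 and Dnmt3a at P14 and P28, while each Tet gene keeps at least 19.5% of its family's sum in every library.

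The estimated differences of the 3 Tet genes from P7 to P14 and from P1 to P28 were smaller than those of Dnmt1 and Uhrf1, a contrast that was not tested. Tet1, whose protein binds unmethylated CpG islands through a CXXC domain, had 1813, 1933 and 1929 normalized counts at P1, 2666, 2371 and 2937 at P7, 1772, 1857 and 1904 at P14, and 1458, 2088 and 1841 at P28. The P7 libraries were above all others, and the remaining time points overlapped. Tet1 fell by 0.52 ± 0.16 (SE) on the log2 scale from P7 to P14 (limma adjusted p = 0.0297), while the higher level at P7 than at P1, 0.49 ± 0.16, was not called (adjusted p = 0.0842). That difference from P1 was called by DESeq2 (adjusted p = 0.0377), with library totals (0.0410), with only P1 and P7 fitted (0.0357) and without replicate 1 of P28 (0.0440). The fall was lost without replicate 1 or 3 of P7 or any library of P14 (adjusted p from 0.0549 to 0.136). P28 differed from P1 by -0.09 ± 0.16 (adjusted p = 0.688), but by -0.53 under scaling by library totals (adjusted p = 0.0129).

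Tet2, which lacks a CXXC domain of its own and is guided by other proteins, had 2071, 2189 and 2349 normalized counts at P1, 2520, 1906 and 1977 at P7, 1749.5, 1683 and 1539.9 at P14, and 1643, 931 and 1861 at P28. Replicate 2 of P28 was the lowest of all 12 and the P28 libraries all lay below those of P1. Tet2 was called lower at P28 than at P1, by 0.63 ± 0.22 (SE) on the log2 scale (limma adjusted p = 0.0384). The call was lost with edgeR (adjusted p = 0.0736), with DESeq2 (adjusted p = 0.0574) and with only P1 and P28 fitted (adjusted p = 0.116). It was also lost without replicate 2 of P28 (-0.33, adjusted p = 0.142), any P1 library, replicate 3 of P7 or replicates 1 or 2 of P14 (adjusted p from 0.05004 to 0.109).

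Tet3, the form expressed in the oocyte and in neurons, had 1996, 1224 and 1795 normalized counts at P1, 1565, 1442 and 1683 at P7, 1369, 1219.7 and 1186 at P14, and 1051, 769 and 1156 at P28. The libraries of P28 lay below all others, and those of P14 below those of P7. Tet3 was lower at P28 than at P1 by 0.74 ± 0.21 (SE) on the log2 scale (limma adjusted p = 0.0125), a mean 1.69-fold lower, and than at P7 by 0.67 ± 0.21 (adjusted p = 0.0185). No single step between neighbouring time points was called, and the difference between P28 and P1 was lost without replicate 1 or 3 of P1 (adjusted p = 0.0682 and 0.0507) and with only P1 and P28 fitted (adjusted p = 0.0644). That between P28 and P7 was lost without replicate 1 or 3 of P7 or replicate 2 of P28 (adjusted p from 0.0523 to 0.0697). The summed per-kilobase level of the 3 Tet genes was 353 to 416 at P7 and 236 to 299 at P28.

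Beside the Tet genes, 22 genes of the oxidation and repair branch were listed, of which 18 could be tested. From P7 to P14, 4 fell (Neil3, Lig3, Parp1 and Ung), and from P1 to P28 4 fell (Neil3, Lig3, Idh1 and Cxxc4) and Gadd45g rose. That is 4 and 5 of 18 genes, beside 20.9% and 34.6% of all genes called, with 10.0% and 20.0% lower. Neil3, a DNA glycosylase of proliferating cells, had means of 123 normalized counts at P1, 254 at P7 and 5.41 at P14, and no read in any P28 library. Against 3 reads per library at P28, that is a level at least 30.9-fold lower than at P1. Lig3, the ligase that seals repaired gaps, fell by 1.04 ± 0.33 (SE) from P7 to P14 (limma adjusted p = 0.0348), from a mean of 856 to 423. Idh1, one source of the 2-oxoglutarate that the Tet enzymes need, was lower at P28 than at P1 by 0.74 ± 0.18 (adjusted p = 0.00614), with means of 869 and 1464. Gadd45g, a stress-response gene linked to demethylation, was higher by 1.32 ± 0.44 (adjusted p = 0.0317), with means of 194 and 74.2. Cxxc5, a CXXC protein that interacts with Tet2, was higher at P7 than at P1 by 0.74 ± 0.21 (adjusted p = 0.0417). Ogt, the sugar transferase that binds Tet proteins, was not called in any of these steps, with means of 1899, 2416, 2611 and 2270. Tdg, the glycosylase that excises the oxidised bases, did not pass the filter.

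The 2 readers moved in opposite directions. Mbd1, which recruits the H3K9 methyltransferase Setdb1, had 311, 251 and 301 normalized counts at P1, 272, 296 and 289 at P7, 235, 238 and 233 at P14, and 101, 104 and 64.9 at P28. The P14 libraries all lay between 233 and 238, and every P28 library lay below every other library. Mbd1 fell by 1.41 ± 0.30 (SE, log2 scale) between P14 and P28 (limma adjusted p = 0.00749), a mean 2.62-fold lower, and by 1.69 ± 0.30 from P1 to P28 (adjusted p = 0.00059). The fall from P14 to P28 was called on leaving out any 1 library, but not when only the 6 libraries of those time points were fitted (adjusted p = 0.134).

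Mbd2, the methyl-CpG binding subunit of a NuRD complex, had 307, 492 and 287 normalized counts at P1, 341, 373 and 293 at P7, 362, 514 and 622 at P14, and 742, 862 and 652 at P28. All P28 libraries lay above all others, and the earlier time points overlapped. Mbd2 was higher at P28 than at P1 by 1.09 ± 0.27 (SE) on the log2 scale (limma adjusted p = 0.00676), a mean 2.08-fold higher, and than at P7 by 1.16 ± 0.27 (adjusted p = 0.00387). Neither neighbouring step was called, at 0.54 ± 0.27 from P7 to P14 (adjusted p = 0.186) and 0.61 ± 0.27 from P14 to P28 (adjusted p = 0.143). Both calls were lost under scaling by library totals, at 0.65 between P28 and P1 (adjusted p = 0.067) and 0.67 between P28 and P7 (adjusted p = 0.0572). Per kilobase, Mbd2 was 1.99 to 4.09 times Mbd1 at P1, 2.11 to 2.63 times at P7, 3.21 to 5.56 times at P14 and 15.4 to 20.9 times at P28.

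Other methyl-CpG binding proteins and their relatives were mixed. Of 11 tested, 3 fell from P7 to P14 (Zfp57, Zbtb33 and Baz2b), and from P1 to P28 2 fell and 2 rose. The shares of all genes called were 20.9% and 34.6%, with 10.0% and 20.0% lower. Zfp57, which keeps the methylated allele of imprinted regions methylated, had means of 572, 1249, 195 and 8.49 normalized counts at P1, P7, P14 and P28, and it fell by 2.88 ± 0.83 (SE) from P7 to P14 (limma adjusted p = 0.0228) and again between P14 and P28 (-5.17 ± 0.83, adjusted p = 0.00163). Zbtb33, the Kaiso repressor, fell by 0.89 ± 0.26 from P7 to P14 (adjusted p = 0.0243). Its relatives Zbtb4 and Zbtb38 were higher at P28 than at P1, by 1.62 ± 0.36 (adjusted p = 0.00323) and 1.23 ± 0.35 (adjusted p = 0.0143), although for Zbtb38 the libraries overlapped. Baz2b, a bromodomain protein with an MBD-like domain, rose from P1 to P7 by 0.76 ± 0.17 (adjusted p = 0.0147) and fell by 0.64 ± 0.17 to P14 (adjusted p = 0.0176). Mbd3, the NuRD subunit that reads methylation poorly, had means of 328, 361, 207 and 306 and was not called in these steps.

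Of 14 corepressors that MBD proteins recruit, 3 fell from P7 to P14 and 4 from P1 to P28. Of all genes, 20.9% and 34.6% were called in either direction, and 10.0% and 20.0% lower. Hdac2, a deacetylase of the NuRD complex, fell by 1.63 ± 0.22 (SE) from P7 to P14 (limma adjusted p = 0.000123), from a mean of 1169 normalized counts to 377. Setdb1, the methyltransferase that Mbd1 recruits, was lower at P28 than at P1 by 0.77 ± 0.24 (adjusted p = 0.0239), and Mta2, of the NuRD complex, by 0.91 ± 0.27 (adjusted p = 0.0187), with libraries that overlapped. Chd4, the NuRD remodeller and the most abundant of the list per kilobase, was not called, with means of 4307, 4425, 3066 and 3358, and neither was Rbbp7, with 823, 880.4, 505 and 875. Of 6 CXXC proteins of unmethylated CpG islands, Kmt2a (-0.57 ± 0.14, limma adjusted p = 0.00964) and Kdm2a (-0.45 ± 0.14, adjusted p = 0.0325) fell from P7 to P14, and Kdm2b was lower at P28 than at P1 (-2.07 ± 0.52, adjusted p = 0.00732). That is 2 and 1 of 6 genes, against 10.0% and 20.0% of all genes called lower.

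**Figure D5:**
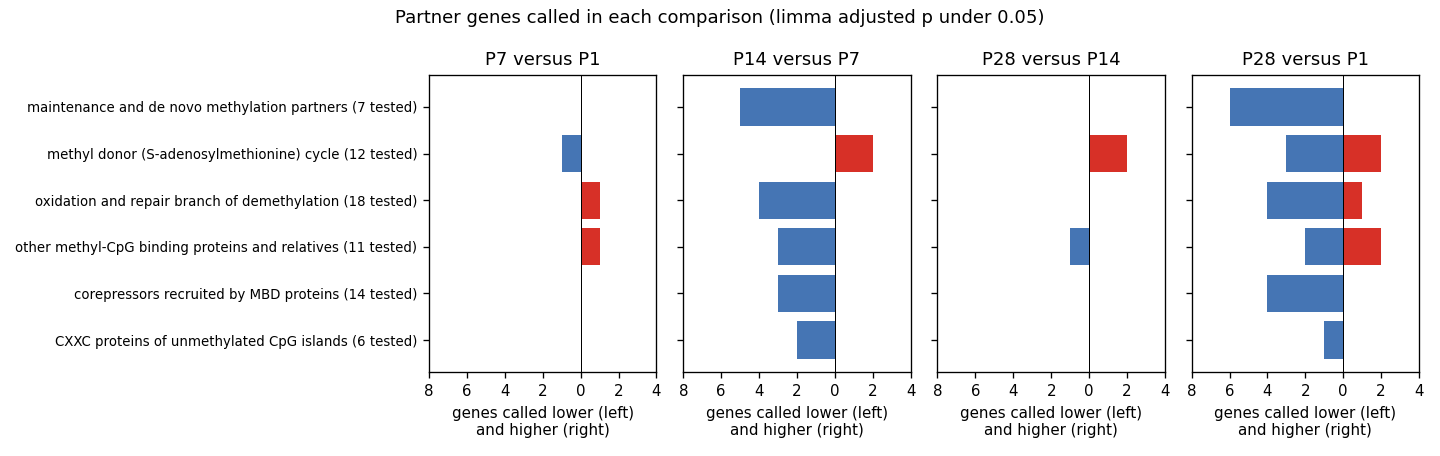
Number of genes called lower (bars to the left) and higher (bars to the right) in each partner list (y axis, with the number tested) for 4 comparisons. From P7 to P14, 17 of the 68 genes tested were lower and 2 higher, against 10.0% and 10.8% of all genes. The only list with rising genes at that step was the methyl donor cycle.

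The methyl donor cycle, which makes S-adenosylmethionine for the methyltransferases, held the 2 partner genes called higher from P7 to P14. They were also the 2 called higher from P14 to P28. That is 2 of 12 genes in each step, against 10.8% and 5.68% of all genes. From P1 to P28, 2 of the 12 were called higher and 3 lower, against 14.6% and 20.0% of all genes. Ahcyl1 and Ahcyl2, relatives of the S-adenosylhomocysteine hydrolase that act on inositol trisphosphate receptors and ion transporters, had means of 3747, 2446, 8503 and 12132 and of 754, 792, 1335 and 3649 normalized counts at P1, P7, P14 and P28. They rose from P1 to P28 by 1.70 ± 0.15 (SE, limma adjusted p = 1.42e-06) and by 2.28 ± 0.17 (adjusted p = 3.12e-07). Ahcy, the hydrolase itself, was lower at P28 than at P1 by 1.59 ± 0.55 (adjusted p = 0.0357), with libraries that overlapped, as were Shmt2, a mitochondrial enzyme of folate metabolism (-2.01 ± 0.44, adjusted p = 0.00287), and Mtr, methionine synthase (-1.47 ± 0.43, adjusted p = 0.016), neither with overlap. Mat2a, which makes the donor, was not called in these steps, with means of 2443, 2705, 3314 and 2934. Over all 6 lists, 17 of 68 genes fell and 2 rose from P7 to P14, and 20 fell and 5 rose from P1 to P28. Beside these stand 20.9% and 34.6% of all genes called in either direction, with 10.0% and 20.0% lower. The median log2 fold changes of the 68 were -0.57 and -0.50, beside -0.09 and -0.24 over all genes. The count of 25 of 68 from P1 to P28 is near the share of all genes.

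Levels of the 9 genes can be compared with each other only per length. Over the 12 libraries the mean per kilobase of exon was 152 for Mbd2 and 146 for Dnmt3a, followed by Tet1 (132), Dnmt1 (127), Tet2 (111), Tet3 (82.1), Uhrf1 (36.6), Mbd1 (33.5) and Dnmt3b (14.2), an order that held at none of the 4 time points. At P1 Dnmt3a at 168 ± 9.68 (SD, n = 3) and Dnmt1 at 167 ± 54.0 came first and lay within each other's spread, followed by Tet2 at 131 ± 8.27, Tet1 at 122 ± 4.42 and Mbd2 at 113 ± 35.2. At P7 Dnmt1 came first, at 214 ± 2.40, then Tet1 at 172 ± 18.3, Tet2 at 127 ± 19.9, Dnmt3a at 115 ± 7.63 and Mbd2 at 104 ± 12.5. At P14 Dnmt3a at 171 ± 23.6 and Mbd2 at 155 ± 40.6 came first, within each other's spread, then Tet1 at 119 ± 4.33. At P28 the order began with Mbd2, at 234 ± 32.8, then Dnmt3a at 129 ± 21.1, Tet1 at 116 ± 20.5 and Tet2 at 87.6 ± 28.8. The ranges of mean ± SD of Dnmt3a, Tet1 and Tet2 overlapped. The order ended with Dnmt3b at 6.55 ± 2.75 and Uhrf1 at 5.32 ± 4.89, whose ranges overlapped too.

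The genes with the most similar course were looked up by Pearson's r of the log2 values over the 12 libraries, among 9893 genes with a mean of at least 100 normalized counts. The libraries share 4 time points, so r follows the differences between ages as well as single libraries, and it is given as a description. Nearest to Dnmt1 was Kif18a, a mitotic kinesin (r = 0.976), then Cdc23, a subunit of the anaphase-promoting complex (0.975), and Fnbp4 (0.973). Nearest to Uhrf1 were Smad2, a transducer of TGF-beta signals (0.988), Heatr6 (0.98) and Mir684-1 (0.967). Dnmt3a had weaker neighbours, in Ptprn2 (0.916), Cyb561a3 (0.883) and Olig1 (0.871), and Olig1, a factor of the oligodendrocyte lineage, shared its low P7 and P28 levels with means of 2005, 369, 1733 and 415 normalized counts. Dnmt3b was nearest to Arl5b (0.963), Cdk14 (0.949) and Eed, a subunit of the Polycomb methyltransferase (0.946).

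The Tet genes each had other neighbours. Tet1 was nearest to Kmt2e (0.93), Tbc1d16 (0.925) and Tbpl1 (0.921), Tet2 to Cep63, a centrosome protein (0.945), Tead2, a transcription factor of Hippo signalling (0.943), and Ncaph, a condensin subunit (0.926), and Tet3 to Thsd7a (0.953), Yeats2 (0.947) and Utp20 (0.942). Mbd1 was nearest to Jmjd6 (0.984), Pcdh15 (0.976) and Basp1 (0.973), of which Basp1, a growth cone protein, had means of 829.98, 918, 214 and 17.4. Mbd2 was nearest to Rn45s, the 45S precursor of ribosomal RNA (0.951), then Ppp1r9b (0.951) and Scoc (0.949). Rn45s took 2.19% to 2.98% of the reads of a library at P1 and 3.18% to 3.93% at P28, and its part in the rise of Mbd2 was not tested.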

How the data were processed

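RNA of sorted GFP-positive cerebellar cells from 12 libraries, 3 per time point, was analysed. Per the labels and the study's methods, the authors aligned paired reads to mm10 with STAR (2.5.0a), counted them per gene and normalized them with DESeq2, for which the labels give version 1.30.1 and the study's methods another. How reads shared by overlapping genes were counted, and whether strand was used, is not given in the sources used here. The deposited values are a signal, counts divided by a size factor per library, and dividing by the smallest step gave whole reads for 100% of values, within 0.01 of a read. All column names carry P28, so columns were matched to samples through the labels' descriptions, and 0 columns were left over.

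limma (3.58.1, R 4.3.3) was run on log2(value + 1) with a variance trend over the genes that reached a value of 10 in 3 or more libraries. Alternatives were edgeR (4.0.16) and DESeq2 (1.42.0) on the recovered reads, TMM scaling, library totals, pseudocounts of 0.1 and 10, no filter, a minimum of 10 reads in all libraries, a fit of the compared time points alone, the replicate block, an unadjusted p under 0.05 with a log2 fold change over 0.75, and omission of single libraries in turn. Each test was checked on simulated counts. A gene with 0 reads can hold up to 3 (95% confidence), which covers counting error only. The 12 pairs of libraries within a time point all differed beyond sampling noise.

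The genes, partner lists and comparisons were chosen with earlier results of these data known. Named beside the 9 genes were, of each list, the 2 most abundant per kilobase and the 3 with the largest called change from P1 to P28, and the 3 nearest courses per gene; other names complete a count and were chosen after their values were seen. Protein sequences, and promoter windows of Mbd1 and Mbd2, are not used here.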

Additional observations from a re-analysis of the deposited data

How the results depend on the processing

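No result changed direction past the threshold under any alternative. Of the 21 calls of single genes over 6 comparisons, TMM scaling, both pseudocounts, no filter and the replicate block kept 21, library totals 18, edgeR and DESeq2 20 each, fitting only the time points compared 18, and the unadjusted threshold with a log2 fold change over 0.75 kept 15. Leaving out each library kept 15 to 21, with 15 without replicate 3 of P7, 16 without replicate 2 of P14, and 17 without replicate 1 of P7 or replicate 3 of P14. Uhrf1 was not tested at a minimum of 10 reads in all libraries, which kept the other 17.

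Among the 9 genes, the count called from P1 to P7 (0) became 1 with library totals, 1 with a minimum of 10 reads in all libraries, 2 with DESeq2, 3 with only the time points compared and 1 at an unadjusted p under 0.05 with a log2 fold change over 0.75, and 0 to 2 on leaving out each library. From P7 to P14 (5) it was 3 at that unadjusted threshold and 2 to 5 on leaving out each library, being 2 without replicate 1 or 3 of P7 or replicate 2 or 3 of P14. From P14 to P28 (1) it was 3 with library totals, 0 with only the time points compared, 2 at the unadjusted threshold and 1 to 2 on leaving out each library. From P1 to P28 (6) it was 4 to 7, and in the F test (8) it was 4 to 9, with 4 without replicate 1 and 5 without replicate 3 of P7.

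Among the 68 partner genes, the count from P1 to P7 (3) became 5 with library totals, 6 with DESeq2, 12 with only the time points compared and 0 to 5 on leaving out each library. From P7 to P14 (19) it was 30 with only the time points compared and 11 to 24 on leaving out each library. From P14 to P28 (3) it was 6 with library totals, 7 with DESeq2, 10 at the unadjusted threshold and 2 to 8. From P1 to P28 (25) it was 42 with library totals, 14 with only the time points compared and 16 to 26. The cause of these shifts was not tested. Over all genes, library totals moved the percentage of called genes that were higher from 51.9% to 32.7% between P7 and P14 and from 42.3% to 20.8% between P1 and P28.

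The replicate numbers did not pair the samples: over 18 pairs of libraries with the same number, the correlation of their deviations from the group means was -0.03 to 0.14, and over 0.1 in 1 pair. With the replicate number as a block, 0, 5, 1 and 6 of the 9 genes were called from P1 to P7, P7 to P14, P14 to P28 and P1 to P28, 8 in the F test, and 3, 19, 2 and 26 of the partner genes. The block added Tet2 between P7 and P28 (adjusted p = 0.0461). Depth limits Uhrf1 at P14 and P28 and Dnmt3b, which had 0 to 28 and 15 to 51 reads per library there.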

Other observations

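Germline genes known to be silenced by promoter methylation, other than Sycp3, stayed near 0 in most libraries. Of 12 such genes, 4 passed the filter on low values, and 7 were at 0 reads in all 3 libraries of P28. Sycp3 and Sycp1, both of the synaptonemal complex, were called higher at P14 than at P7, which is 2 of the 4 tested, against 10.8% of all genes. Sycp3 had means of 54.0, 50.8, 181 and 369 normalized counts at P1, P7, P14 and P28, and it was higher at P28 than at P1 by 2.77 ± 0.40 (SE, log2 scale, limma adjusted p = 0.000123). Sycp3 lies within Chpt1, a phospholipid synthesis gene on the opposite strand, and Chpt1 had 490 to 759 normalized counts at P1 and 3400 to 4579 at P28. As the counting is not stated to use strand, reads of the pair cannot be told apart. Sycp1 had 0 reads at P1, 22, 0 and 1 at P7, 25, 25 and 46 at P14, and 2, 10 and 3 at P28. It was higher at P14 than at P7 by 3.40 ± 1.02 (adjusted p = 0.0282), and against 3 reads per library at P1 its P14 level was at least 16.4-fold higher. Taf7l, a germline form of a general transcription factor subunit, had means of 10.6 at P1 and 6.30 at P28, with libraries that overlapped.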
